A study of Mus musculus with 2 samples.

Results

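The microRNA genes Mir200a, Mir200b, Mir200c, Mir141, Mir429, Mir203 and Mir205, known from epithelial cells, were examined in the small RNA of a non-epithelial organ, the mouse heart. The 7 genes were taken by gene symbol and not by level, although earlier results of these data were known. All 7 were found among the 2202 microRNA genes counted. The samples were heart tissue of male mice at 2 months of age, of the strain B6CASTF1/J, an F1 hybrid of C57BL/6J and CAST/EiJ. There was 1 group of 2 libraries, with no treatment and no second tissue, labelled as biological replicates 1 and 2. The labels number them as separate males but give both the same donor identifier, so the spread between them holds at least library preparation and may or may not hold differences between animals. Each library was limited to fragments of mature microRNA size, and each value below is a count of reads for a whole hairpin gene, with both arms of the hairpin added together.

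A microRNA gene is transcribed as a long primary transcript, from which a hairpin is cut and then trimmed to short mature strands, and neighbouring hairpins can come from a single transcript. A mature microRNA pairs with target messenger RNAs mainly through its seed, bases 2 to 8 from the 5′ end. The Mir200 family is known for repressing the transcription factors Zeb1 and Zeb2 and thereby keeping epithelial cells from taking on mesenchymal traits, and Zeb1 and Zeb2 in turn repress the family. Mir203 is known from the differentiating layers of the skin, where it represses the stem cell factor p63. Mir205 is known from basal cells of stratified epithelia. Heart is made up mostly of muscle, endothelial, mural and connective tissue cells, with a mesothelial covering.

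The mature strands best known from these genes are shown because their seeds divide the Mir200 family across its chromosomal clusters. Sequences are from RefSeq on GRCm38.p6, the assembly also called mm10, and all 7 members had the same hairpin position and sequence there as in GENCODE M21. Capitals mark the seed.
miR-200b-3p: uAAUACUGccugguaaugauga
miR-200c-3p: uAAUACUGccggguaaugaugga
miR-429-3p: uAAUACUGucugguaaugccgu
miR-200a-3p: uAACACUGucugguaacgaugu
miR-141-3p: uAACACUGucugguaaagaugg
miR-203-3p: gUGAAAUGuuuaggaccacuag
miR-205-5p: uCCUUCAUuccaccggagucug

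Mir200b, Mir200c and Mir429 share 1 seed, and Mir200a and Mir141 share another. Counting from base 1 at the 5′ end, the seeds of miR-200b-3p and miR-200a-3p differ at a single position, U4C. Outside the seed, miR-200b-3p and miR-200c-3p differ at U11G and A22G over their first 22 bases, and miR-200a-3p and miR-141-3p differ at C17A and U22G. Among 1738 mouse mature sequences searched, these 2 seeds occurred in no strand other than those 5, and the seeds of miR-203-3p and miR-205-5p occurred in no other strand. The 5p strands are grouped differently, since miR-200a-5p and miR-200b-5p have a seed in common while those of miR-200c-5p, miR-141-5p and miR-429-5p are each found once.

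The genes lie at 4 places in mm10. Mir200b (chromosome 4, 156055681 to 156055750), Mir200a (156054896 to 156054985) and Mir429 (156053905 to 156053987) follow each other on the minus strand, 695 and 908 bases apart. All 3 lie within the noncoding gene Gm13648 and the protein-coding gene Ttll10 on that strand, where Mir200b and Mir200a are intronic in both and Mir429 lies in an exon of Gm13648 and an intron of Ttll10. Mir200c (chromosome 6, 124718322 to 124718390) and Mir141 (124717914 to 124717985) are 336 bases apart on the minus strand, within an intron of the noncoding gene Gm15884, and Mir141 also overlaps an exon of Gm29008, a gene of biotype TEC on the same strand. Mir205 (chromosome 1, 193507463 to 193507530, minus strand) lies in an exon of the noncoding gene 4631405K08Rik. Mir203 (chromosome 12, 112130880 to 112130955, plus strand) overlaps no other gene of GENCODE M21. Thus 6 of 7 members lie inside another gene on their own strand, as do 53.6% of all 2202 microRNA genes.

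Replicate 1 held 10362589 reads, of which 3650782 fell on the strand of a microRNA gene, and replicate 2 held 10483233, of which 3810675 did. Levels are given as CPM, counts per 1000000 reads on microRNA genes, so that 1 read was worth 0.274 CPM in the first library and 0.262 CPM in the second. Reads placed at several positions, 48.0% and 46.4% of the libraries, entered no gene. The longest stretch that a member shared with the hairpin of another microRNA gene was 17 bases, between Mir200a and Mir141, and 14 bases between Mir200b and Mir200c. The rest of the genome was not searched. Of 7 genes that mark heart muscle, 6 reached 2 CPM in both libraries, with a median of 54.1 CPM. Mir499 was at 2601 and 2507 CPM, Mir208a at 1329 and 4265 CPM and Mir208b at 24.7 and 118 CPM, so that the Mir208 genes differed widely between the libraries. The other 4, copies of Mir1a and Mir133a, lay between 1.64 and 68.8 CPM, and reads that fit more than 1 copy entered none of them. In whole tissue, fewer cells of a type and less RNA per cell cannot be told apart.

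Mir200c and Mir203 were the 2 leading members, and no value of theirs overlapped those of the other 5. Mir200c had 636 reads in replicate 1 and 580 in replicate 2, or 174 and 152 CPM, a mean of 163 CPM ± 15.6 (SD, n = 2). Mir203 had 635 and 451 reads, or 174 and 118 CPM, a mean of 146 CPM ± 39.3 (SD, n = 2). Their values were nearly equal in replicate 1 and stood apart in replicate 2, where Mir203 was lower. Here and below, intervals in parentheses after a share are exact Clopper-Pearson 95% intervals. Together both genes held 91.6% (90.1 to 93.0) of the members' reads in replicate 1 and 86.0% (83.9 to 87.9) in replicate 2.

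The other 5 members lay between 1.92 and 13.1 CPM in every library. Mir200b had 35 and 50 reads, or 9.59 and 13.1 CPM, a mean of 11.4 CPM ± 2.50 (SD, n = 2). Mir141 had 41 and 34 reads, or 11.2 and 8.92 CPM, a mean of 10.1 CPM ± 1.63 (SD, n = 2). Mir429 had 19 and 47 reads, or 5.20 and 12.3 CPM, a mean of 8.77 CPM ± 5.04 (SD, n = 2). The values of these 3 genes overlapped, so their order was not resolved. Mir205 had 7 and 26 reads, or 1.92 and 6.82 CPM, a mean of 4.37 CPM ± 3.47 (SD, n = 2). Mir200a had 14 and 11 reads, or 3.83 and 2.89 CPM, a mean of 3.36 CPM ± 0.670 (SD, n = 2). Mir200a lay below Mir200b and Mir141 in both libraries, while its values fell inside the range of Mir205.

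**Figure D1:**
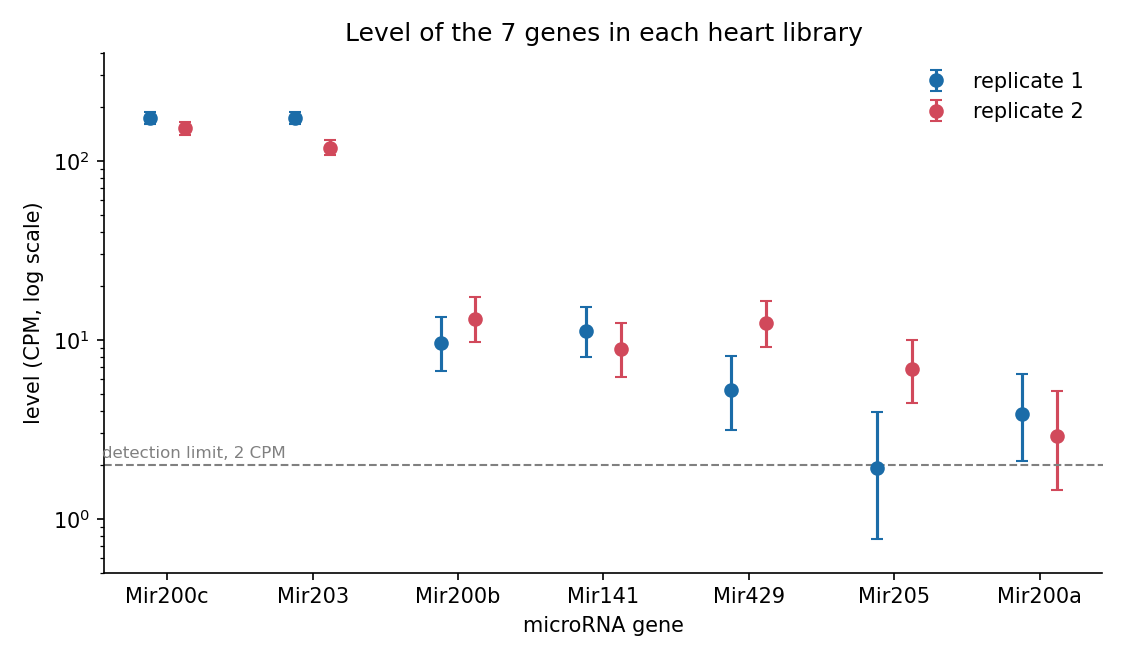
Level of each gene in CPM on a log axis, by library; points are single libraries and bars are exact Poisson 95% intervals of the count. Mir200c and Mir203 lie between 118 and 174 CPM, and the other 5 genes lie at 13.1 CPM or below.

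Detection was set at 2 CPM in each of the libraries. By this rule 6 of the 7 members were detected, against 15.3% of all 2202 microRNA genes, of which 1480 had no read in either library. Mir205 missed the limit in replicate 1, where its exact Poisson 95% interval of 0.771 to 3.95 CPM spans it. These intervals cover counting error only, since reads are not independent molecules. Summed over the 7 genes, the members took 0.0380% (0.0360 to 0.0400) of the reads counted on microRNA genes in replicate 1 and 0.0315% (0.0297 to 0.0333) in replicate 2. Reads placed at several positions are not in this total.

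The cluster Mir200c-Mir141 was compared with the cluster Mir200b-Mir200a-Mir429 within each library. Mir200c-Mir141 had the higher level in both libraries, at 185 and 161 CPM, against 18.6 and 28.3 CPM for Mir200b-Mir200a-Mir429. The factor was 9.96 in the first library and 5.69 in the second, a mean log2 ratio of 2.88 ± 0.56 (SD, n = 2; a pseudocount of 0.5 CPM was added to every level before log ratios). Of the reads of the 5 family genes, the Mir200b-Mir200a-Mir429 cluster held 9.13% (7.16 to 11.4) in replicate 1 and 15.0% (12.4 to 17.8) in replicate 2. An exact sign-flip test over 2 libraries cannot give a p below 0.5, so the ratio between the clusters was not tested.

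The cluster make-up itself differed between the libraries beyond counting error. The odds of a family read coming from Mir200c-Mir141 were 0.571 times as high in replicate 2 as in replicate 1 (95% interval 0.407 to 0.797; two-sided Fisher's exact test, p = 0.000705, adjusted p = 0.00282 over 4 comparisons of make-up). The call was lost with Mir429 left out, a choice made after its values were seen, when the odds ratio was 0.729 (0.482 to 1.10; Fisher's exact test, adjusted p = 0.226). The test compares these 2 libraries and no conditions.

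Within the Mir200c-Mir141 cluster, Mir200c exceeded its neighbour by a like factor in each library. The ratio was 15.5 in the first library and 17.1 in the second, a mean log2 ratio of 3.96 ± 0.09 (SD, n = 2). Mir200c made up 93.9% (91.9 to 95.6) of the reads of the pair in replicate 1 and 94.5% (92.3 to 96.1) in replicate 2, and the odds ratio between the libraries was 1.10 (0.671 to 1.81; Fisher's exact test, adjusted p = 0.722). An unequal level of neighbours was common in these counts. Some of the neighbours compared have copies elsewhere, such as Mir29b-1, Mir24-1 and Mir16-2, and reads placed at several positions entered no gene. Pairs with such genes were kept, and how far they raise the median below was not tested. Over 79 pairs of adjacent detected microRNA genes at most 10 kb apart on 1 strand, the median absolute log2 ratio was 2.68, and 20 pairs had a larger ratio than Mir200c and Mir141. Mature strands differ in how readily they enter a library, and no correction was made for this, so ratios between genes are those of reads.

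Hairpins of that pair are shown with both mature strands in capitals, 5p first and 3p second, because the reads of either strand add to the same count. Both are from RefSeq on GRCm38.p6, minus strand.
Mir200c, chr6:124718322-124718390: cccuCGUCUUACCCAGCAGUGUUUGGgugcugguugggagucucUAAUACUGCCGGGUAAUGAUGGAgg
Mir141, chr6:124717914-124717985: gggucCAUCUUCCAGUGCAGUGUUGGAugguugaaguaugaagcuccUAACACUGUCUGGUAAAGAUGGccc

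The Mir200b-Mir200a-Mir429 cluster was more even, and its order was the less certain for its low counts. Mir200b exceeded Mir200a by 2.50 and 4.55 times, with a mean log2 ratio of 1.61 ± 0.56 (SD, n = 2). Mir200b and Mir429 differed by 1.84 and 1.06 times, with a mean log2 ratio of 0.45 ± 0.52, which is within the spread between the libraries. Mir200a was below Mir429 in both, with log2 ratios of -0.40 and -1.92. Mir429, the hairpin farthest downstream, held 27.9% (17.7 to 40.1) of the cluster's reads in replicate 1 and 43.5% (34.0 to 53.4) in replicate 2. These intervals overlap, which does not show that the shares are alike, and their difference was not tested. Against the same 79 adjacent pairs, 50 had a larger absolute log2 ratio than Mir200b and Mir200a, and 59 a larger one than Mir200a and Mir429.

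**Figure D2:**
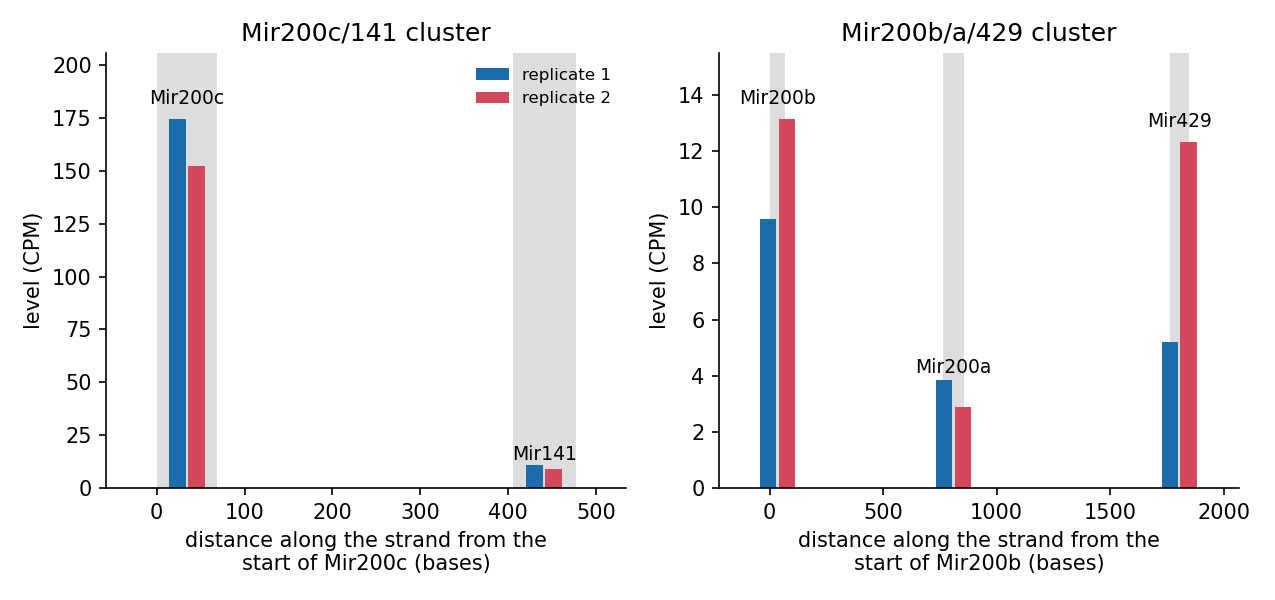
Levels in CPM at each hairpin of the 2 clusters, drawn to scale along the strand; grey bands are the hairpins, blue bars replicate 1 and red bars replicate 2. The level axes differ: Mir200c reaches 174 CPM in the left panel, while Mir200b tops the right panel at 13.1 CPM.

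With the genes grouped by the seed of their 3p strand across both clusters, the reads came mainly from Mir200b, Mir200c and Mir429. These 3 genes summed to 189 and 178 CPM in replicates 1 and 2, a mean of 183 CPM ± 8.02 (SD, n = 2). Mir200a and Mir141, the genes of the other seed, summed to 15.1 and 11.8 CPM, a mean of 13.4 CPM ± 2.30 (SD, n = 2). The genes of the first seed thus held 92.6% (90.5 to 94.4) of the family's reads in replicate 1 and 93.8% (91.7 to 95.4) in replicate 2. Reads of both arms are in these counts, so the share is one of genes and not of strands with that seed. The log2 ratio of the seed groups was 3.73 ± 0.18 (SD, n = 2). No difference in seed make-up between the libraries was detectable at this depth, with an odds ratio of 1.20 (0.782 to 1.85; Fisher's exact test, adjusted p = 0.544).

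The genes of the first seed led in each cluster taken alone. In Mir200c-Mir141 this is the excess of Mir200c over Mir141 given above. In Mir200b-Mir200a-Mir429 they are 2 of 3 genes, so equal levels would also put them ahead, and the share rests on few reads. Within Mir200b-Mir200a-Mir429, the genes of the first seed, Mir200b and Mir429, held 79.4% (67.9 to 88.3) of the reads in replicate 1 and 89.8% (82.5 to 94.8) in replicate 2. The share over the whole family is mostly that of Mir200c, which alone held 85.4% and 80.3% of the family's reads. Between genes of equal seed, Mir200c exceeded Mir200b by 18.2 and 11.6 times, and Mir141 exceeded Mir200a by 2.93 and 3.09 times. The gene on chromosome 6 was the higher one for both seeds in both libraries.

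**Figure D3:**
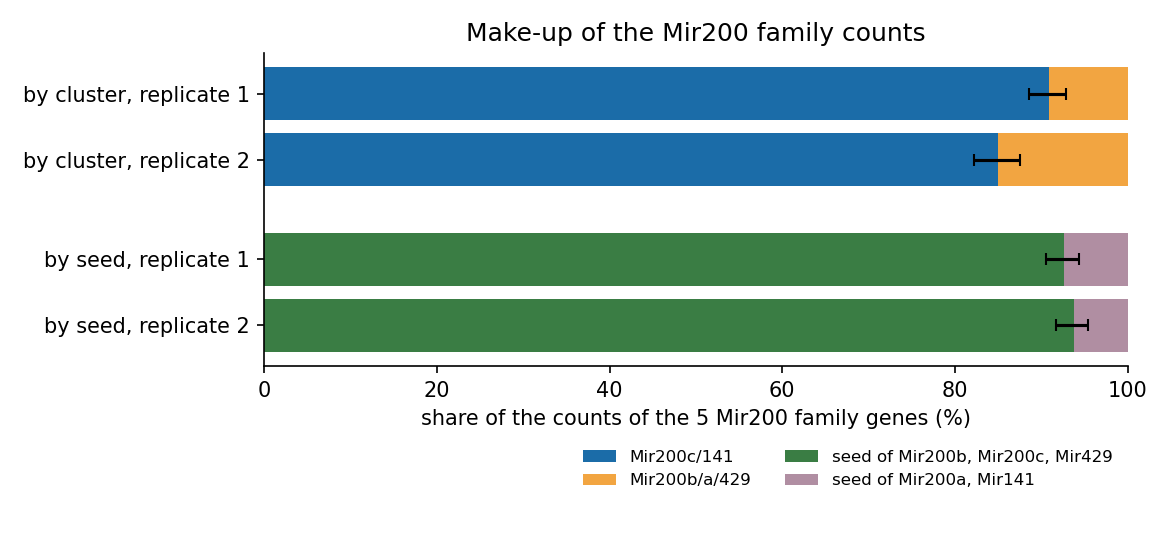
Share of the reads of the 5 Mir200 family genes, by cluster and by seed, in each library; black bars are Clopper-Pearson 95% intervals. Mir200c-Mir141 holds 90.9% and 85.0% of the reads. The genes grouped by the seed of Mir200b, Mir200c and Mir429 hold 92.6% and 93.8%, with both arms counted.

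Mir203, the skin-linked gene, had a level like that of Mir200c. The ratio of Mir200c to Mir203 was 1.00 in the first library and 1.29 in the second, or on average a log2 ratio of 0.18 ± 0.25 (SD, n = 2), so that their order was not resolved beyond the spread between the libraries. The make-up of this pair differed between the libraries, with an odds ratio of 1.28 for Mir200c (95% interval 1.08 to 1.52; Fisher's exact test, adjusted p = 0.00658 over 4 comparisons). Mir205 held 0.505% (0.203 to 1.04) of the members' reads in replicate 1 and 2.17% (1.42 to 3.16) in replicate 2. These intervals do not overlap, and they rest on 7 and 26 reads.

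Reads came almost entirely from the annotated strand. Of the 7 genes, 5 had no read on the opposite strand in either library. Mir141 had 1 such read in replicate 1 and none in replicate 2, and Mir203 had 0 in replicate 1 and 6 in replicate 2. RefSeq places Gm51289, also named Mir203b, on the minus strand opposite Mir203 at 112130887 to 112130946 of chromosome 12, a gene that GENCODE M21 does not hold. Over all 2202 genes, 71 had a read on the opposite strand, as did 29 of the 337 detected genes.

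Differences between the libraries were tested for each gene against counting error alone. Of the members, 6 passed the low-count filter and Mir205 did not. By an exact binomial test with Benjamini-Hochberg adjustment over 320 genes, 3 of these 6 differed, against 64.4% of all genes compared, so that such a difference was common between these libraries. Mir429 was higher in replicate 2, with a log2 ratio of 1.21 (95% interval 0.44 to 2.08, adjusted p = 0.00239), where 30.6% of all genes compared were higher. Mir203 was lower in replicate 2, with a log2 ratio of -0.57 (-0.75 to -0.39, adjusted p = 4.06e-10), and so was Mir200c at -0.21 (-0.37 to -0.04, adjusted p = 0.0207), where 33.8% of all genes compared were lower. The call of Mir200c was lost without the low-count filter (-0.13, adjusted p = 0.294) and without strand (-0.18, adjusted p = 0.0585).

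Mir200b, Mir200a and Mir141 did not pass this test. Their log2 ratios were 0.43 (95% interval -0.21 to 1.11), -0.41 (-1.71 to 0.82) and -0.34 (-1.05 to 0.35) in that order, and each interval reaches from a negative to a positive difference. Mir205, tested without the filter, was higher in replicate 2 by a log2 ratio of 1.82 (0.65 to 3.34; exact binomial test, adjusted p = 0.0034). Without the filter 722 genes were tested, of which 118 were called higher in replicate 2 and 95 lower. The size of the members' differences was set against the 320 genes that passed the filter. Over the 320 genes the median absolute log2 ratio was 0.44, and 11.9% had one at least as large as that of Mir429, 41.3% as that of Mir203 and 73.4% as that of Mir200c. For Mir205, which rests on 7 and 26 reads, the share was 3.44%. Mir205 is not among those 320 genes, and its ratio was scaled with library sizes computed without the filter. The biological coefficient of variation in edgeR was 0.370 over the same genes.

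**Figure D4:**
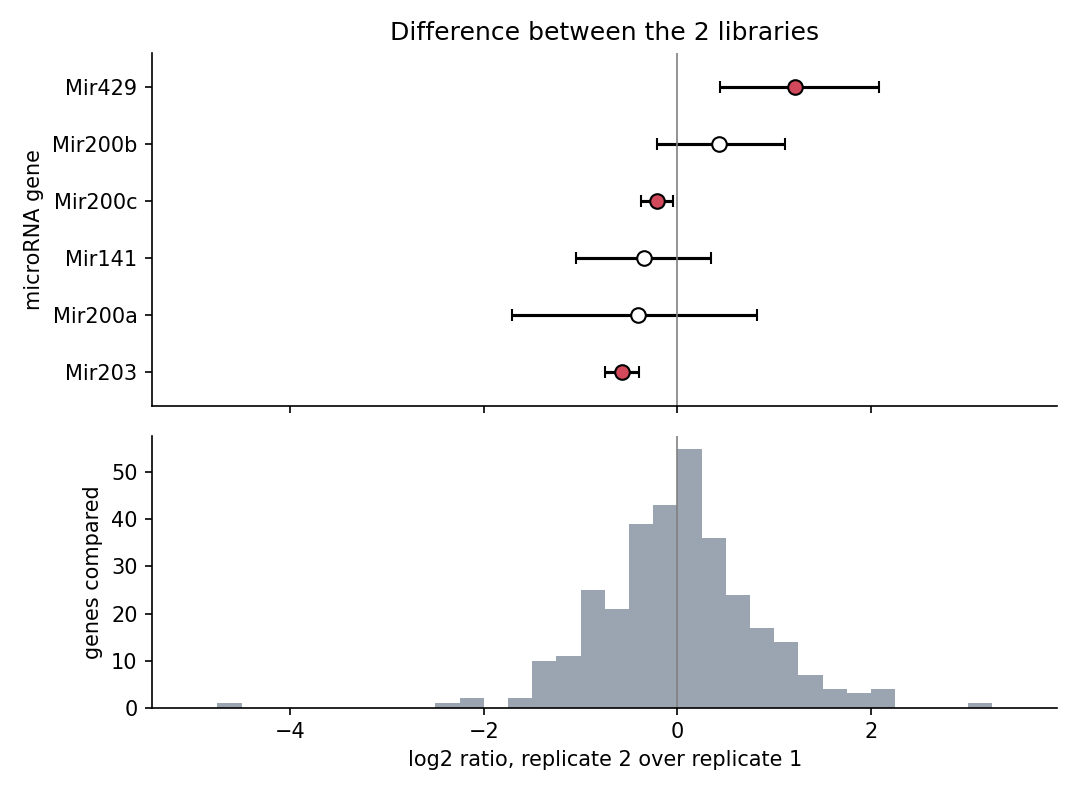
Top: log2 ratio of replicate 2 over replicate 1 for the 6 members compared, with exact 95% intervals; filled points passed the exact binomial test at an adjusted p under 0.05. Bottom: the same ratio for all 320 genes compared, whose median absolute value is 0.44.

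In the profile of all microRNA genes, without reads placed at several positions, Mir200c ranked 116 and Mir203 ranked 122 by mean level. Mir200b, Mir141, Mir429, Mir205 and Mir200a ranked 248, 257, 268, 314 and 335. The median over the 7 members was 10.1 CPM, against 54.1 CPM over the 337 detected genes and 0 over all genes. By mean level, Mir1306 stood just above Mir200c at 167 CPM ± 55.0, and Mir187 just below it at 163.0 CPM ± 50.8 (SD, n = 2 each). Mir1843a stood just above Mir203 at 147 CPM ± 14.1, and Mir382 just below it at 145 CPM ± 8.87. Next to Mir200b stood Mir3064 at 11.5 CPM and Mir103-2 at 11.3 CPM, next to Mir141 Mir8112 at 10.4 CPM and Mir543 at 9.95 CPM, next to Mir429 Mir1943 at 8.79 CPM and Gm23935 at 8.62 CPM, and next to Mir200a Mir346 at 3.37 CPM and Mir376b at 3.22 CPM. The genes named are those just above and just below each member in the order of mean CPM over 2 libraries.

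Genes listed for endothelium, smooth muscle, erythroid cells and leukocytes were above the members, by widely different factors. All 10 exceeded every member in both libraries. The endothelial gene Mir126a was at 52212 and 70228 CPM and the smooth muscle gene Mir143 at 49081 and 50331 CPM. The erythroid gene Mir144 was at 411 and 477 CPM. Among the leukocyte genes, Mir155 was at 3492 and 3116 CPM and Mir223, the lowest of the 10, at 318 and 226 CPM, beside 174 and 152 CPM for Mir200c. Genes best known from organs other than the heart also had reads. The liver gene Mir122 was at 142 and 97.9 CPM. Of the 2 skeletal muscle genes listed, Mir206 was at 37.0 and 303 CPM and Mir133b at 6.03 and 5.25 CPM. Mir200c and Mir203 lay above both Mir122 and Mir206 in replicate 1 and between them in replicate 2.

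**Figure D5:**
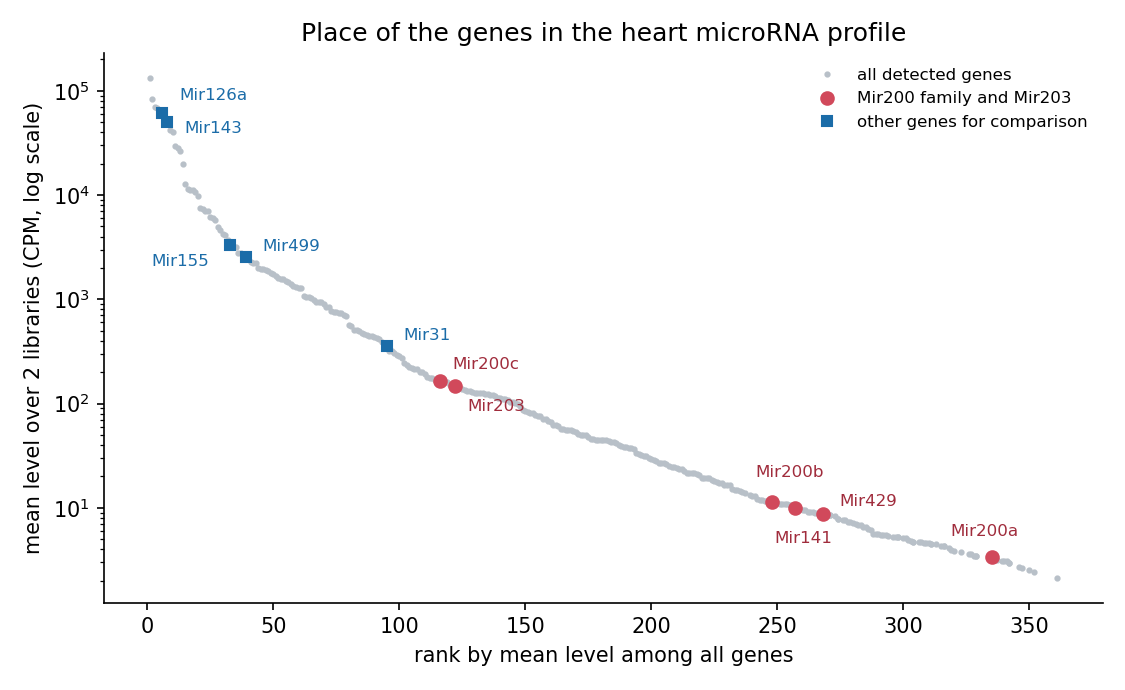
Mean level over the 2 libraries, on a log axis, against rank for the 337 detected genes; red circles are the 6 detected members and blue squares 5 genes named for comparison. Mir200c and Mir203 sit at ranks 116 and 122, while Mir126a ranks 6.

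Other genes known from epithelia were taken as a list of 17, of which 13 were detected, against 15.3% of all genes. Their summed level was 698 and 811 CPM in replicates 1 and 2, and the median of the list was 16.5 CPM. Mir31, known from skin and also from other tissues, was the highest at 380 and 334 CPM, above Mir200c in both libraries. Mir148a followed at 82.2 and 179 CPM, and it is abundant in liver as well. Mir192, Mir194-1, Mir194-2 and Mir215, which are abundant in gut, liver and kidney, had mean levels of 16.5 to 36.5 CPM.

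Markers of single epithelial cell classes gave mixed values. Of the genes of multiciliated cells, Mir449a was at 24.9 and 40.7 CPM and Mir34c at 61.4 and 39.6 CPM, Mir34b was at 3.83 and 6.04 CPM, and Mir449b and Mir449c had no read, which allows up to 0.822 and 0.787 CPM (3 counts per library, a one-sided 95% limit). The neuroendocrine gene Mir375 was at 9.59 and 7.61 CPM. Of the sensory epithelium cluster, Mir183 was at 7.94 and 10.2 CPM, Mir182 at 3.29 and 8.92 CPM and Mir96 at 0.274 and 0.525 CPM.

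Between the libraries, the other epithelial-linked genes differed in both directions. By the same exact binomial test, 13 were compared, 7 were higher in replicate 2, 3 were lower and 3 did not pass, where 30.6% of all genes compared were higher and 33.8% lower. The list had a median log2 ratio of 0.68 against 0.02 over all 320 genes. Mir215 had the largest ratio, with 47 and 229 reads and a log2 ratio of 2.20. Mir182 had 12 and 34 reads, Mir192 had 50 and 137 and Mir194-2 had 48 and 116 (log2 ratios of 1.39, 1.37 and 1.19). Mir148a, Mir449a and Mir194-1 were also higher, at 1.11, 0.69 and 0.68, beside the higher Mir429. Mir224, Mir34c and Mir31 were lower in replicate 2, at -0.97, -0.64 and -0.20, beside the lower Mir203 and Mir200c. Whether these reads and those of the members come from the same cells was not tested.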

How the data were processed

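The authors deposited 1 table of raw read counts per library, without a header, holding 2202 microRNA genes and 4 rows that name no gene. Per the text deposited with each table, reads were placed on mm10 with GENCODE M21, whereas the aligner is not given in the sources used here. Rows that name no gene, 64.8% and 63.6% of the reads, were left out of totals and tests. The column of reads on the gene's strand was used, and CPM was computed over the sum of all gene rows. The reference is C57BL/6J, and loss of reads that carry CAST/EiJ alleles was not tested. All 2202 identifiers matched GENCODE M21. Per-gene differences between the libraries were tested by comparing counts with the ratio of TMM library sizes in a two-sided exact binomial test (edgeR 4.0.16, filterByExpr, R 4.3.3), with Benjamini-Hochberg adjustment over all genes compared. DESeq2 1.42.0 size factors, plain totals, no filter, counts without strand, other denominators, pseudocounts and detection limits, and each library left out were the alternatives. Intervals and Fisher's exact tests were computed in SciPy 1.17.1. The binomial test was tried on simulated counts with counting error only, so the trial does not cover the wider spread between these libraries. The members and lists were chosen with earlier results of these data known, and the set of adjacent gene pairs after the members' values were seen. Named genes are the 7 members, the listed genes, and the genes just above and below each detected member in mean CPM.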

Additional observations from a re-analysis of the deposited data

Results flagged for a closer look

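Reads on the strand opposite Mir203, a column that the levels do not use, numbered 6 in replicate 2 and 0 in replicate 1. The value in replicate 2 is above the 3 reads that a count of 0 allows by a one-sided 95% limit. The exact Poisson 95% intervals, 2.20 to 13.1 reads for the 6 and up to 3.69 reads for a count of 0, overlap. Overlap does not show that the counts are alike, and their difference was not tested. On the strand of Mir203 the same libraries had 451 and 635 reads. Where on that strand the 6 reads lie is not shown by these counts.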

How the results depend on the processing

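No paired analysis was possible because there is 1 group. The number of detected members was 2 at 10 CPM in both libraries (Mir200c and Mir203), in place of 6. In 5 of the 8 alternatives it was 7, with Mir205 added: without strand, with Mir378a left out, at 1 CPM, at 2 CPM in either library and without replicate 1; the range with a replicate left out was 6 to 7. The members' share of microRNA reads, 0.0347% over both libraries, was 0.0452% without strand and 0.0401% with Mir378a, the most abundant gene, left out; in both, fewer reads stand in the denominator. With Mir429 left out of its cluster, the log2 odds ratio of the cluster make-up between the libraries was -0.46 in place of -0.81 and no longer passed the test. The count of members that differed between the libraries was 3 in the main analysis, and it was 2 without strand, where Mir200c did not pass. Directions held for the 7 ratios and the 4 comparisons of make-up under the alternatives run on each, although Mir200c over Mir203 was 0.00 without replicate 2. Depth limits the 5 lower members, which had between 7 and 50 reads per library.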
